A study of Mus musculus with 26 samples.

Results

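Expression of 29 genes of cholesterol synthesis and its control by SREBP2 was examined in leukaemic stem and progenitor cells of mice with chronic myeloid leukaemia (CML) and altered Spred1. The genes were taken by symbol from a list of enzymes, regulators and transporters, and 29 of 29 were found among the 24091 genes of the count table. All 29 passed the filter on low counts that left 13379 genes for testing. The protein SPRED1 sits at the membrane and restrains RAS-ERK signalling.

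RNA came from LSK cells, the bone marrow fraction sorted as Lin-Sca-1+c-Kit+, of C57BL/6 mice that all carried SCLtTA/BCR-ABL, in which the stem cell leukaemia (SCL) enhancer drives a tetracycline transactivator that switches on BCR-ABL. The 26 libraries formed 5 groups. Global KO mice (6 libraries) carried the knockout throughout the body, and Spred1 wt mice (5 libraries) were their controls. HSC KO (5 libraries, Spred1HSCΔ/Δ) and HSC wt (5 libraries, Spred1HSCwt/wt) mice both received 7 doses of 250 µg poly(I:C) at intervals of 2 days to activate Mx1-cre, which is induced by interferon in haematopoietic and some other cells. EC KO mice (5 libraries, Spred1ECΔ/Δ) had the endothelial knockout, and the Cre line that produced it is not named in the labels. Libraries of EC wt mice were not analysed here. Spred1 wt served as the control in their place, with HSC wt as a further comparison. Ages are not given, and nothing says whether poly(I:C) was given to the other 3 groups. The protocol speaks of 5 mice per group for the HSC and EC groups but does not link libraries to mice, so p-values measure the spread between libraries.

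Cells make cholesterol from acetyl-CoA through mevalonate, isoprenoid diphosphates, squalene and lanosterol. When sterols in the endoplasmic reticulum are low, SCAP escorts the transcription factor SREBP2 to the Golgi, where proteases release its active part, and INSIG proteins hold SCAP back when sterols are plentiful. Oxysterols act in the opposite direction through LXR receptors, which turn on the exporters ABCA1 and ABCG1, and cholesterol export by these transporters is known in mice to restrain the expansion of haematopoietic progenitors.

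Libraries held between 14816071 and 26714325 counts in total. Spred1 lay at 22.4 to 44.5 CPM (normalised read counts scaled to a common library size) in global KO and 28.8 to 47.4 CPM in HSC KO, below the 92.4 to 148 CPM of Spred1 wt and the 96.9 to 109 CPM of HSC wt. In EC KO it lay at 58.0 to 84.0 CPM, also below every Spred1 wt library. Kit and Cd34 were present in every library, at no less than 344 and 530 CPM, whereas Cd3e of T cells stayed at or under 1.40 CPM. The summed level of 9 mast cell markers spanned 564 to 15957 CPM over the libraries. Xist was high in 2 of 5 EC KO libraries, 3 of 5 HSC KO and 2 of 5 HSC wt, and in 0 of the others. Sex was thus not balanced between EC KO and its stand-in control, or between HSC wt and Spred1 wt.

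Promoters from RefSeq (build GRCm38.p6, 250 bases before to 50 after the start) were matched for 24 of the 29 genes. Fdft1, Fdps, Npc1, Sqle and Stard4 had no promoter to scan, so the shares below leave them out. The sterol element TCACNCCAC was found in 1 of the 24, Hmgcs1, against 1.44% of all 27025 genes with a promoter. The NF-Y box CCAAT was found in 20 of 24 genes (83.3%), against 41.1% of all genes. The Sp1 box GGGCGG was found in 21 of 24 (87.5%), against 38.2%. A gene was counted if any of its promoters held the motif. Per promoter, the NF-Y box was in 21 of 32, against 37.4% of all promoters, and the Sp1 box in 25 of 32, against 35.7%. The background was not limited to tested genes. NF-Y and Sp1 are the factors that act beside SREBPs at textbook sterol-responsive promoters, although many promoters that are not sterol-responsive also hold these short motifs. The 4 promoters below are shown because they contrast the gene with the sterol element with the SREBP2 target Insig1 and with 2 genes that differed in EC KO. Hmgcs1 lies at chr13:119690101-119690400 on the plus strand and Insig1 at chr5:28071162-28071461 on the plus strand. Acat2 lies at chr17:12960676-12960975 on the minus strand and Abca1 at chr4:53159846-53160145 on the minus strand. Capitals mark the sterol element, NF-Y and Sp1 boxes on either strand, of which 0 overlapped.
Hmgcs1: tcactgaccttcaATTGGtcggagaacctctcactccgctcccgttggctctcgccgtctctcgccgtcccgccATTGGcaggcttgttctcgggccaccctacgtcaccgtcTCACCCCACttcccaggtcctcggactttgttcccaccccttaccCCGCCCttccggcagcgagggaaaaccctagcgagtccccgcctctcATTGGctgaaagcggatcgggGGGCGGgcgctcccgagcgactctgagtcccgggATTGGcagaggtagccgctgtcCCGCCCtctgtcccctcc
Insig1: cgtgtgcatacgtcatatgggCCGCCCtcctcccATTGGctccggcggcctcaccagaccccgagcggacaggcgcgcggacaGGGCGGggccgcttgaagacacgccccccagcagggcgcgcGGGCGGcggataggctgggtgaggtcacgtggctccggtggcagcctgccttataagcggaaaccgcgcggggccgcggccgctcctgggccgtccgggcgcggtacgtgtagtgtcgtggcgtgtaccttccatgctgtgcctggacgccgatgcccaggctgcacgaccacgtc
Acat2: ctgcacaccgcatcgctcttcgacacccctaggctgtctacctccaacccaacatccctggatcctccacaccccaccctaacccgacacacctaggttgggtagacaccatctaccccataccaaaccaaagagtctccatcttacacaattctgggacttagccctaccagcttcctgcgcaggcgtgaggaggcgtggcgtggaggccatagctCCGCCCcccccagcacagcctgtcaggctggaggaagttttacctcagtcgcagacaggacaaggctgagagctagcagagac
Abca1: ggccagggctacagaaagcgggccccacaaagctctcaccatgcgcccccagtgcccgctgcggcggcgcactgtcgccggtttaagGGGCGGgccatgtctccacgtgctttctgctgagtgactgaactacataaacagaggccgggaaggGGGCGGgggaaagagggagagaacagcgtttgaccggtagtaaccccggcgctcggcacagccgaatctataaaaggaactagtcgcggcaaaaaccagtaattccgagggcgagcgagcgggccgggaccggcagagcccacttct
Hmgcs1 held 1 sterol element, 4 NF-Y boxes and 3 Sp1 boxes, and Insig1 held 1 NF-Y box and 3 Sp1 boxes. Acat2 held 1 Sp1 box and Abca1 held 2, with 0 NF-Y boxes in either. A match is a description of letters and not of binding.

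All 29 genes were detected in each of the 26 libraries, with no fewer than 64 counts, at levels that differed widely between genes. Per kilobase of gene model and averaged over the 5 groups, Lbr was highest at 89.8 CPM per kilobase, above 95.05% of tested genes. LBR is both a lamin receptor of the inner nuclear membrane and a sterol C14 reductase. TM7SF2, which catalyses the same reduction in the endoplasmic reticulum, had the lowest transcript level of the set, 1.77 CPM per kilobase. The SREBP regulators stood high, with Srebf2 at 40.02, Scap, the escort, at 29.1 and Srebf1, whose product governs fatty acid synthesis more than cholesterol, at 20.8 CPM per kilobase. Insig1 lay at 13.6 and Insig2 at 5.39 CPM per kilobase. Among the enzymes, Fdps, which makes farnesyl diphosphate, stood at 34.3, Ebp, a sterol isomerase, at 24.02, Sqle, the squalene epoxidase that is a control point of the pathway, at 14.8 and Hmgcs1, the synthase that condenses acetoacetyl-CoA, at 13.6 CPM per kilobase. Mvk, the mevalonate kinase, Mvd, the diphosphomevalonate decarboxylase, Idi1, the isopentenyl diphosphate isomerase, and Lss, the lanosterol synthase, lay between 3.93 and 4.29 CPM per kilobase. Pmvk, the phosphomevalonate kinase, Ggps1, which makes geranylgeranyl diphosphate, Cyp51, the lanosterol demethylase, and the late reductase and desaturase genes Dhcr7 and Sc5d lay between 8.31 and 12.9 CPM per kilobase. Within groups the set had a median SD of 0.157 (log2) over its genes, against 0.190 over all tested genes, which were not matched to it for level. Abca1 was its most variable gene, with an SD of 0.364 and a 5.10-fold range between the highest and lowest library.

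**Figure D1:**
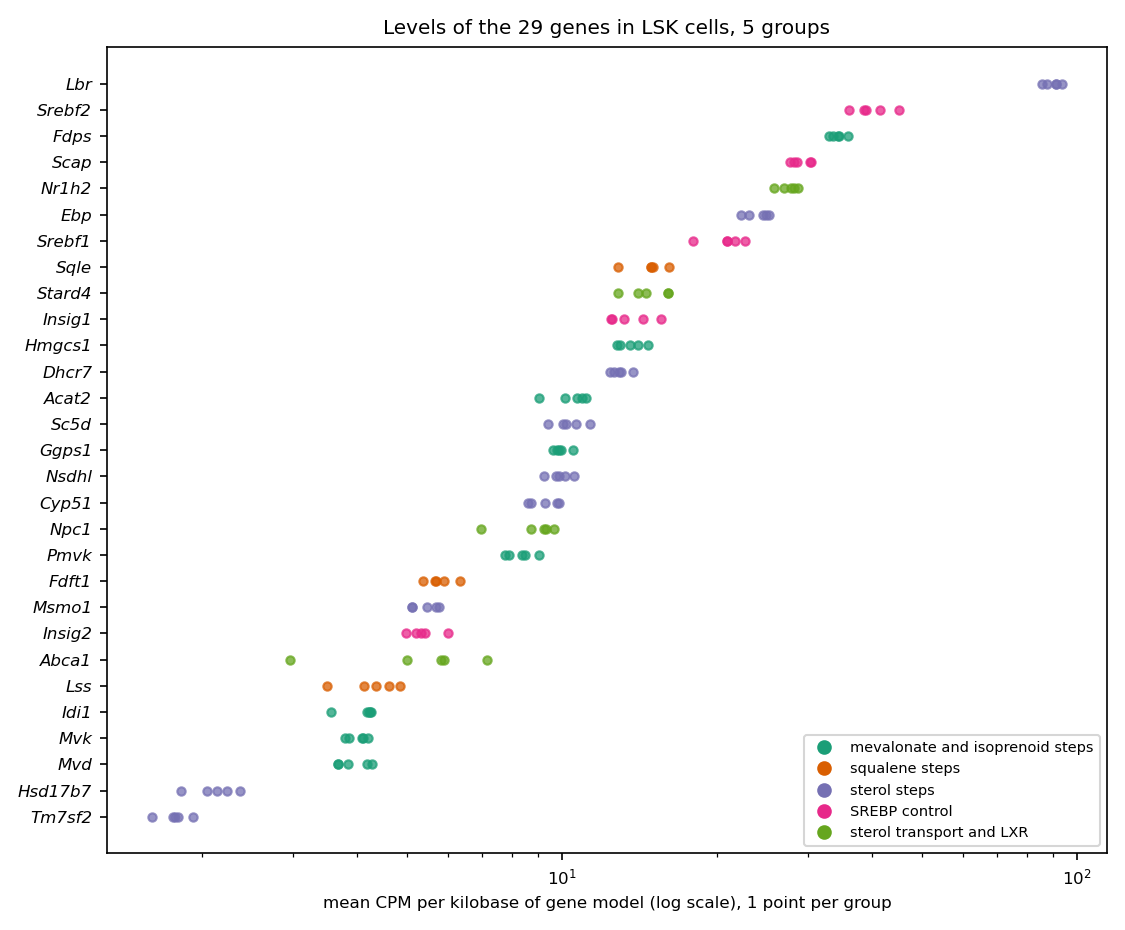
Mean level of each of the 29 genes in the 5 groups, 1 point per group, as CPM per kilobase of gene model on a log axis, coloured by role. Lbr stands alone at the top near 89.8 and Tm7sf2 at the bottom near 1.77, and Abca1 shows the widest spread between groups relative to its level.

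**Figure D2:**
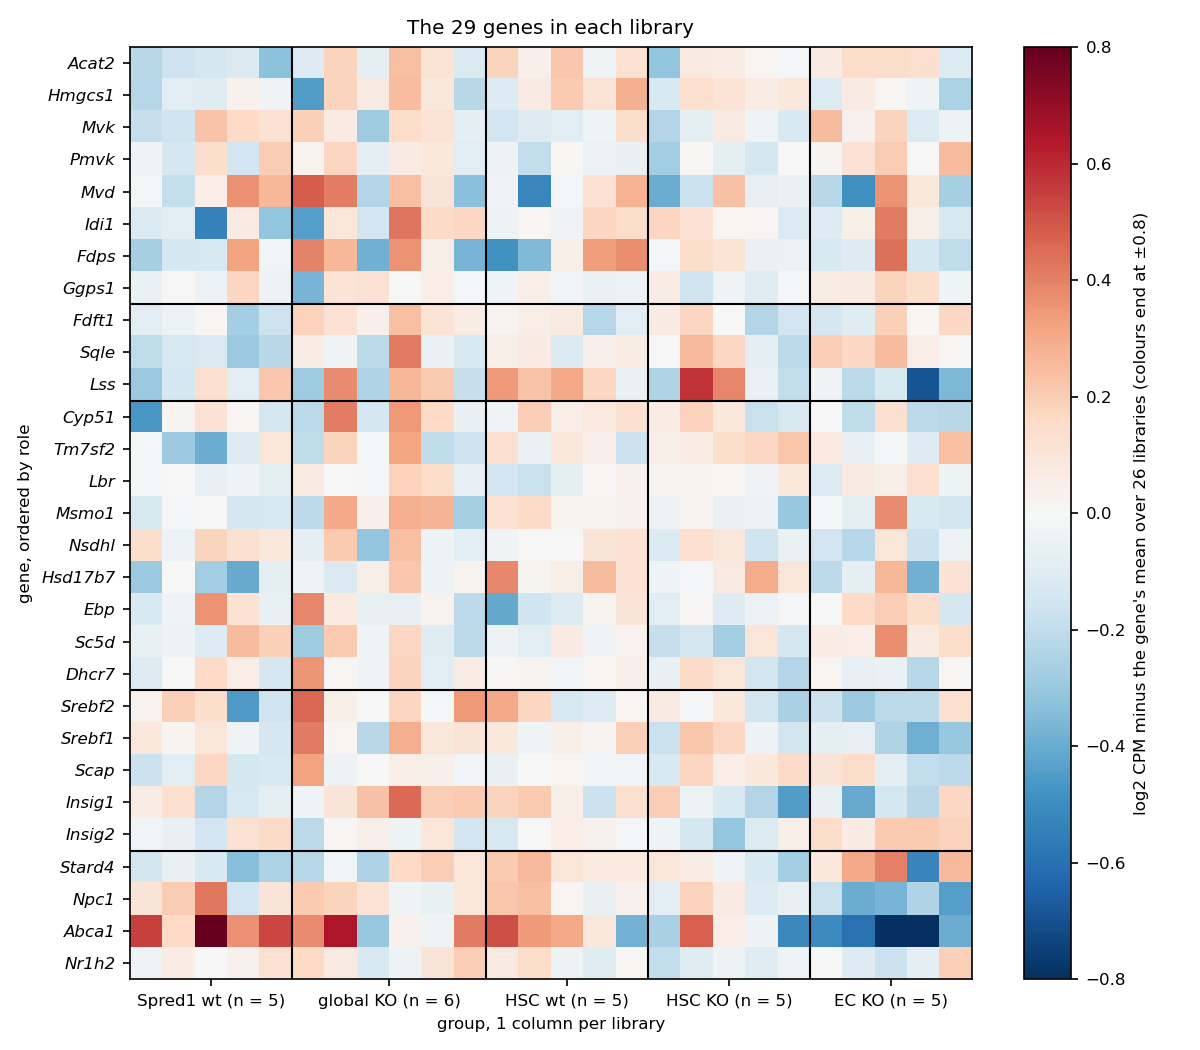
Each of the 29 genes (rows, by role) in each of the 26 libraries (columns, by group), as log2 CPM minus the mean of the gene over all libraries. Abca1 and Npc1 are low in the 5 EC KO libraries, and several enzymes are high in the third of them.

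Global loss of Spred1 was compared with Spred1 wt. In global KO 0 of 29 genes passed the test over all genes, where 0.0747% of all tested genes did (edgeR quasi-likelihood test, Benjamini-Hochberg adjusted p under 0.05). The difference was above 0 in 21 of 29 genes, against 54.53% of all tested genes. Its median was 0.09 (log2) against 0.01 over all tested genes. The mean log2 CPM of the 29 genes had an SD of 0.07 between libraries of a group. Single libraries shifted as a whole, with a median deviation from the group mean of 0.16 in global KO replicate 4 and -0.11 in replicate 3. Genes measured in the same libraries are not independent, so such counts are descriptions only. At an unadjusted p under 0.05 there were 5 genes, all higher, where 5.53% of all genes reached that p. Groups did not overlap for 2 genes, Acat2 and Fdft1, against 0.321% of all genes.

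Acat2, the cytosolic thiolase that joins acetyl-CoA units, read 21.7, 26.4, 22.2, 27.6, 25.2 and 21.5 CPM in the 6 global KO libraries and 20.01, 20.7, 21.2, 21.5 and 18.5 CPM in Spred1 wt. Every global KO library lay above every control, but the lowest, at 21.498 CPM, barely exceeded the highest control at 21.495 CPM. The log2 difference was 0.24 ± 0.08 (SE; edgeR unadjusted p = 0.00654, edgeR adjusted p = 0.561). Fdft1, the squalene synthase that commits farnesyl diphosphate to sterols, read 24.3, 23.1, 21.996, 25.3, 23.1 and 22.3 CPM in global KO and 20.01, 20.7, 21.5, 17.7 and 19.1 CPM in Spred1 wt. Its groups also did not overlap, with a log2 difference of 0.24 ± 0.08 (SE; edgeR adjusted p = 0.575). Fdft1 overlaps Ctsb on the other strand by 773 bases in the table, whose log2 difference was 0.05, and the strand setting of counting is not stated.

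Sqle read 34.7 to 53.7 CPM in global KO and 32.6 to 37.1 CPM in Spred1 wt, and 4 of 6 libraries exceeded every control (log2 difference 0.22 ± 0.09, edgeR adjusted p = 0.822). Insig1, the sterol sensor partner and a textbook SREBP2 target, read 35.1 to 49.0 CPM against 30.4 to 39.2 CPM (0.24 ± 0.11, edgeR adjusted p = 0.847). Hsd17b7, which acts in sterol C4 demethylation, read 9.70 to 12.3 CPM against 7.92 to 10.5 CPM (0.23 ± 0.11, edgeR adjusted p = 0.903). All 3 genes overlapped between the groups. The other 24 genes lay between -0.28 (Abca1) and 0.25 (Idi1) on the log2 scale. Mast cell markers had a median log2 difference of -1.08 in this comparison, macrophage markers 0.88 and neutrophil markers -2.31. Basophil markers had 0.94 and B and plasma cell markers -0.82. Of each list 0 genes were called, and their part in these values was not tested.

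The haematopoietic knockout was compared with HSC wt. Of the 29 genes 0 passed the edgeR test, where 0.0224% of all genes did. The difference was below 0 in 22 of 29, while 56.85% of all genes were higher. Its median was -0.06 (log2) against 0.02 over all genes, beside the SD of 0.07 between libraries of a group. At an unadjusted p under 0.05 there were 0 of 29, against 2.16% of all genes. Differences ran from -0.22 (Abca1) to 0.12 (Tm7sf2). Groups did not overlap for 1 gene, Msmo1, against 0.65% of all genes. Msmo1, the sterol C4 methyl oxidase, read 23.5, 24.5, 23.3, 23.4 and 19.5 CPM in HSC KO and 26.3, 26.9, 24.6, 24.6 and 24.8 CPM in HSC wt. Every HSC KO library lay below every HSC wt library, yet the log2 difference of -0.15 had a 95% interval of -0.38 to 0.07 (edgeR adjusted p = 0.999). Insig1 read 41.1, 34.9, 33.0, 30.5 and 26.3 CPM against 40.7, 41.6, 37.1, 31.8 and 39.2 CPM, and the groups overlapped (-0.20 ± 0.11, edgeR adjusted p = 0.999). Erythroid markers had a median log2 difference of 2.11 in this comparison, B and plasma cell markers 1.02 and basophil markers 0.81. Endothelial markers had 0.70, macrophage markers 0.68 and neutrophil markers -0.85. All 12 S phase and all 10 G2 and mitosis markers were higher, with medians of 0.09 and 0.08. Of these lists 0 genes were called, and their part was not tested.

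The 2 knockout effects were then subtracted to ask whether they differed. The global KO effect was above the HSC KO effect in 25 of 29 genes, against 47.8% of all genes. The median difference was 0.13 (log2) against -0.01 over all genes. The edgeR test of the difference was passed by 0 of 29, where 0.0149% of all genes passed. At an unadjusted p under 0.05 there were 4 genes, against 2.14% of all genes. They were Insig1 (0.44 ± 0.16, SE), Acat2 (0.38 ± 0.12), Stard4, a carrier of cholesterol between membranes (0.38 ± 0.17), and Msmo1 (0.32 ± 0.15), each with an edgeR adjusted p of 0.9998. The control groups were compared for the same genes. Between HSC wt and Spred1 wt 0 of 29 passed the edgeR test, where 0.0299% of genes did, 4 had an unadjusted p under 0.05, against 6.35%, and 4 did not overlap, against 1.9% of all genes.

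All of these genes were higher in HSC wt. Acat2 read 26.4, 23.98, 27.1, 22.9 and 25.4 CPM in HSC wt, all above the Spred1 wt libraries (log2 difference 0.30 ± 0.08, edgeR adjusted p = 0.359). Stard4 read 56.6, 58.7, 52.3, 51.6 and 51.7 CPM against 44.2, 47.0, 44.9, 38.7 and 41.0 CPM (0.33 ± 0.12, edgeR adjusted p = 0.618). Hsd17b7 read 10.7 to 13.7 CPM against 7.92 to 10.5 CPM (0.38 ± 0.12, edgeR adjusted p = 0.453), and Msmo1 24.6 to 26.9 CPM against 21.9 to 24.2 CPM (0.15 ± 0.11). Sqle read 41.5, 41.97, 37.03, 41.3 and 41.8 CPM in HSC wt, of which 4 lay above every Spred1 wt library (0.21 ± 0.10, edgeR adjusted p = 0.740). These groups differ in poly(I:C) as labelled and in the Cre design, which cannot be told apart. They also differ in sex, with Xist high in 2 of 5 HSC wt libraries and in 0 of 5 Spred1 wt libraries. Macrophage markers had a median of -1.06 and neutrophil markers 0.96 between them. The 4 tested B and plasma cell markers had a median of -1.82, and 3 of them did not overlap between the groups. Of these 3 lists 0 genes were called, and their part was not tested.

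**Figure D3:**
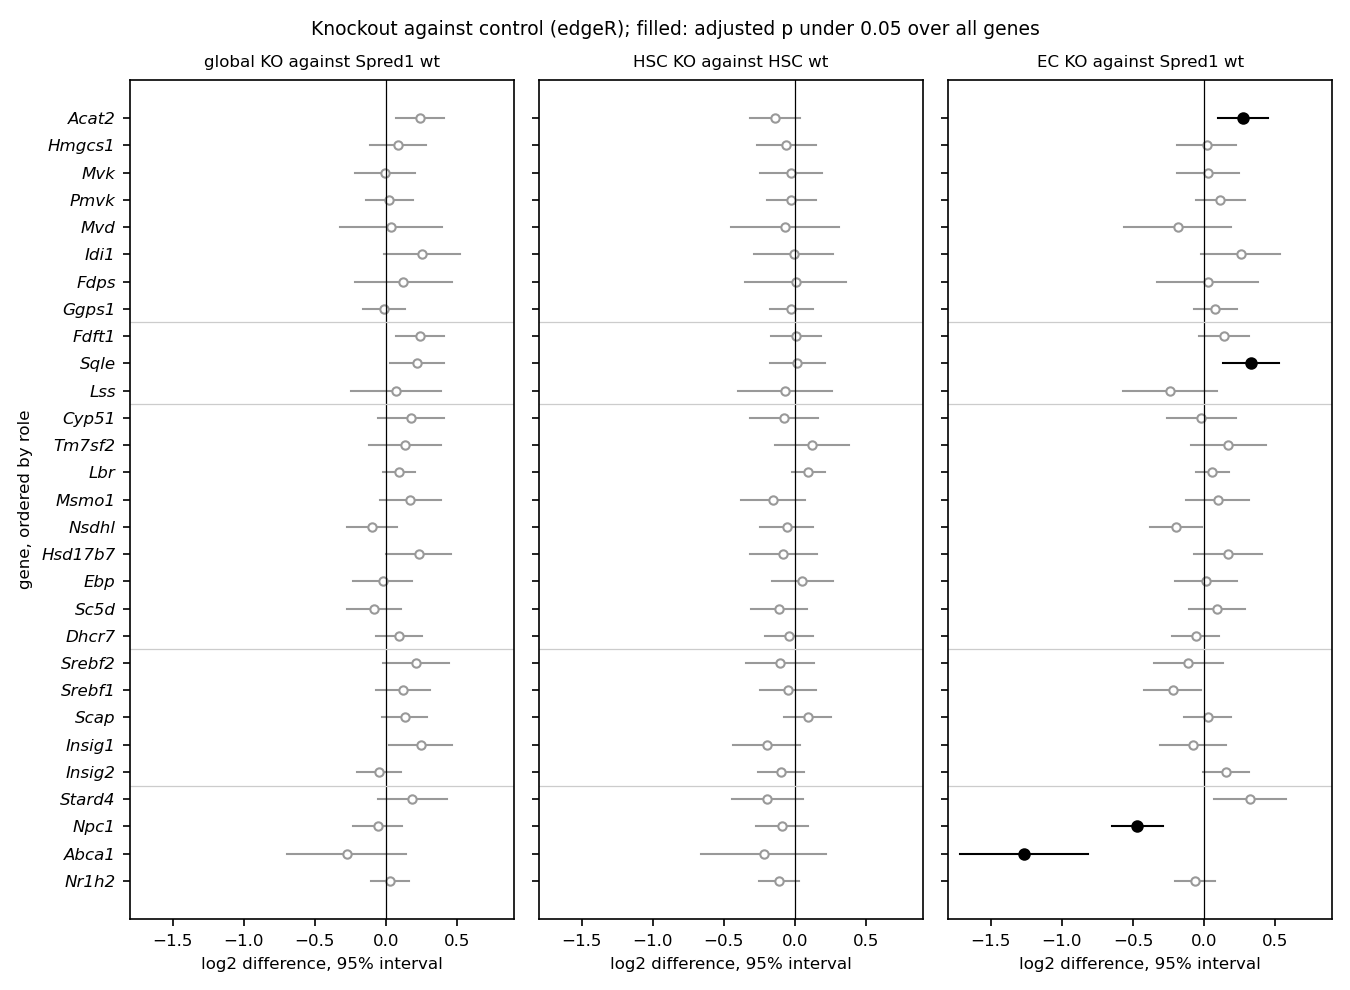
Log2 difference with its 95% interval for each of the 29 genes in the 3 knockout comparisons, filled where the adjusted p was under 0.05 over all genes. The filled points are Acat2, Sqle, Npc1 and Abca1 in EC KO, and 0 points are filled in the other 2 comparisons.

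In EC KO, 4 of the 29 genes differed from Spred1 wt. Abca1, the exporter of cholesterol to apolipoproteins, and Npc1, which moves cholesterol out of late endosomes, fell, and Sqle and Acat2 rose. These were 4 of 29 genes called, where 7.96% of all tested genes were (edgeR adjusted p under 0.05), and the same 4 did not overlap between the groups, against 5.55% of all genes. At an unadjusted p under 0.05 there were 7, against 25.1% of all genes, a share close to the background. Over the set the median difference was 0.03 (log2), with 18 of 29 higher, beside 0.02 and 53.48% higher over all genes.

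Abca1 read 36.3, 34.1, 17.8, 23.97 and 39.3 CPM in EC KO and 75.6, 57.8, 90.8, 66.5 and 74.99 CPM in Spred1 wt, means of 30.3 ± 9.04 and 73.1 ± 12.2 CPM (SD, n = 5 each). Each EC KO library lay below each control, by a log2 difference of -1.27 ± 0.22 (SE; edgeR adjusted p = 0.000866). Npc1 read 67.7, 58.4, 59.5, 65.0 and 56.5 CPM against 82.3, 88.6, 103, 69.0 and 82.5 CPM. The highest EC KO library lay just under the lowest control, and the log2 difference was -0.47 ± 0.09 (SE; edgeR adjusted p = 0.00173). Npc1 overlaps 3110002H16Rik on the other strand by 276 bases in the table, which differed by -0.0018 (log2; edgeR adjusted p = 0.992). Abca1 overlaps Eno1b on the other strand by 129107 bases in the table, and Eno1b differed by 0.09 (log2; edgeR adjusted p = 0.968).

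Sqle read 45.9, 45.0, 47.9, 41.6 and 40.5 CPM in EC KO and 34.8, 36.8, 37.1, 32.6 and 34.4 CPM in Spred1 wt (log2 difference 0.33 ± 0.09, SE; edgeR adjusted p = 0.0327). Acat2 read 24.4, 25.8, 25.9, 25.6 and 21.6 CPM against 20.01 to 21.5 CPM in the upper 4 controls and 18.5 CPM in the lowest (0.27 ± 0.08, edgeR adjusted p = 0.0444). For Acat2 the gap between the lowest EC KO library and the highest control was narrow. Stard4, whose protein carries cholesterol through the cytosol, read 52.0, 60.4, 64.8, 33.9 and 58.5 CPM, of which 4 lay above every control and 1 below every control (0.32 ± 0.12, edgeR adjusted p = 0.0995). Srebf1 read 68.2 to 85.5 CPM against 81.4 to 95.5 CPM (-0.22 ± 0.10, edgeR adjusted p = 0.155), and Nsdhl, a sterol C4 decarboxylase, 18.6 to 23.3 CPM against 21.1 to 24.7 CPM (-0.20 ± 0.09, edgeR adjusted p = 0.171). The other 22 genes lay between -0.24 (Lss) and 0.26 (Idi1) on the log2 scale.

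The falls of Abca1 and Npc1 held against other controls, whereas the rises of Sqle and Acat2 did not. Against HSC wt, where 11.3% of all genes were called, Abca1 differed by -0.97 ± 0.22 (SE; edgeR adjusted p = 0.00559) and Npc1 by -0.42 ± 0.09 (edgeR adjusted p = 0.0033), while Sqle differed by 0.12 (edgeR adjusted p = 0.445) and Acat2 by -0.03 (edgeR adjusted p = 0.866). Against global KO, a comparison chosen after seeing the data in which 8.67% of all genes were called, Abca1 differed by -0.99 ± 0.21 (SE; edgeR adjusted p = 0.00445), Npc1 by -0.41 ± 0.08 (edgeR adjusted p = 0.00331) and Srebf1 by -0.34 ± 0.09 (edgeR adjusted p = 0.0241). The Srebf1 call was kept in 8 of 11 fits with a library left out. It was lost with a covariate for sex (edgeR adjusted p = 0.0516) and with mast cell and macrophage covariates (-0.19; edgeR adjusted p = 0.146). It was also lost with only the groups compared (edgeR adjusted p = 0.0836). Srebf1 overlaps Rai1 on the other strand by 112 bases in the table, and Rai1 was also called against global KO. Srebf2 (-0.32 ± 0.11, edgeR adjusted p = 0.0739), Insig1 (-0.32 ± 0.11, edgeR adjusted p = 0.0622) and Insig2 (0.20 ± 0.07, edgeR adjusted p = 0.0851) did not pass against global KO, and each overlapped between the groups. Against HSC wt, Lss (-0.47 ± 0.16, edgeR adjusted p = 0.0567) and Pmvk (0.19 ± 0.08, edgeR adjusted p = 0.140) overlapped and did not pass. Srebf1 lay below every HSC wt library in all 5 EC KO libraries (-0.27 ± 0.10, edgeR adjusted p = 0.0680) and Insig2 above every one (0.17 ± 0.08, edgeR adjusted p = 0.147), and neither passed. Against HSC wt the groups did not overlap for 4 of 29 genes, Abca1 and Npc1 included, beside 1370 of all 13379 genes. The 3 comparisons share the EC KO libraries. Abca1 and Npc1 were also called when each of the 10 libraries of EC KO and Spred1 wt was left out in turn, against 3 of 10 times for Sqle and 1 of 10 for Acat2. The count of called genes was 2 without EC KO replicate 1, 2 or 3 and without Spred1 wt replicate 1, 2, 4 or 5.

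Other transcripts moved in the same comparison. Kit, the receptor used in the sort, fell by 0.85 (log2; 516 against 930 CPM, edgeR adjusted p = 0.00447). Of 9 mast cell markers, 8 were lower with a median of -2.06, Mcpt4 and Gzmb falling, and their summed level spanned 686 to 4714 CPM in EC KO against 2091 to 15957 CPM in Spred1 wt. Basophil and erythroid markers each had a median of 1.13, macrophage markers 0.84, neutrophil markers 0.56 and B and plasma cell markers -0.995. Of these 5 lists 0 genes were called. With mast cell and macrophage marker means as covariates, Abca1 differed by -0.84 (edgeR adjusted p = 0.0238), Npc1 by -0.39 (0.0238), Sqle by 0.42 (0.0237) and Acat2 by 0.39 (0.0145). All 12 S phase markers were higher in EC KO, with a median of 0.23, and Mcm6, Slbp and Tyms rose. With the S phase mean as covariate Abca1 (-1.10) and Npc1 (-0.44) were still called, while Sqle differed by 0.25 (edgeR adjusted p = 0.176) and Acat2 by 0.18 (edgeR adjusted p = 0.246). With a covariate for sex all 4 genes were still called, Abca1 at -1.16 (edgeR adjusted p = 0.0045) and Npc1 at -0.43 (edgeR adjusted p = 0.00715). In bulk RNA, fewer cells of a type and less RNA per cell cannot be told apart.

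**Figure D4:**
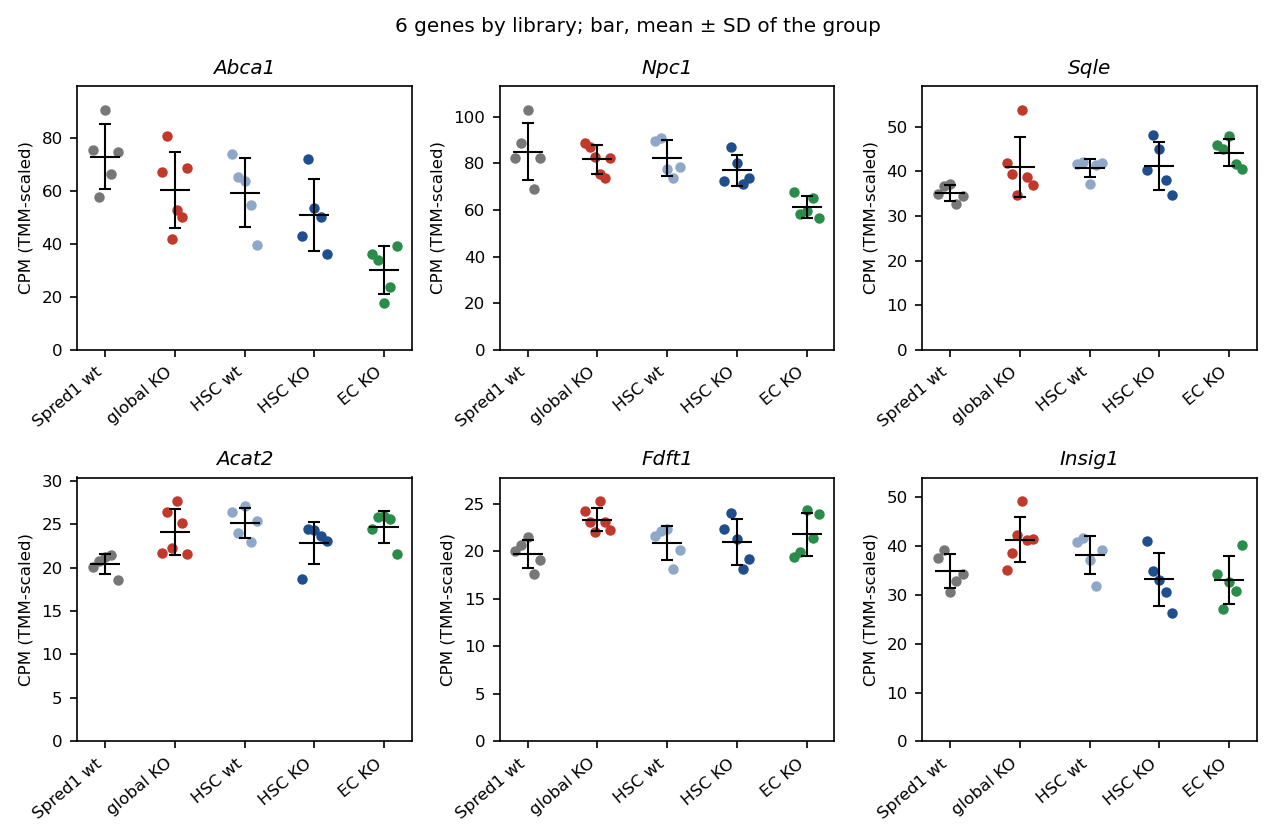
CPM of 6 genes in every library, 1 point per library, with the mean and SD of each group. All 5 EC KO libraries lie below all Spred1 wt libraries for Abca1 and Npc1, and all 6 global KO libraries lie above them for Acat2 and Fdft1. For Acat2 the gap between global KO and Spred1 wt is very narrow.

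Genes of neighbouring pathways were counted from lists on fatty acid synthesis, prenylation, SREBP processing, sterol transport and LXR. In global KO, HSC KO and the wild-type comparison 0 genes of these 5 lists were called. In EC KO against Spred1 wt, 5 of their 67 tested genes (7.46%) were called, a share near the 7.96% of all genes. Abcg1, the LXR target that exports cholesterol to high-density lipoprotein, was the 1 of 9 genes of the LXR list that fell, from 132 ± 31.1 to 73.9 ± 11.3 CPM (SD; log2 difference -0.83 ± 0.17, SE; edgeR adjusted p = 0.00441). Each EC KO library lay below each control, as for Abca1. Nr1h2, which codes for LXRβ, read 71.1 CPM in EC KO and 74.3 CPM in Spred1 wt on average.

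Of 12 SREBP processing genes, 2 fell. Mbtps1, the site-1 protease that cleaves SREBPs, lay at 147 against 177 CPM with no overlap (-0.26 ± 0.05, edgeR adjusted p = 0.00232), and Vcp, the ATPase that extracts sterol-regulated proteins for degradation, at 417 against 598 CPM (-0.52 ± 0.10, edgeR adjusted p = 0.00205). Gramd1b, a carrier of cholesterol from the plasma membrane to the endoplasmic reticulum, was the 1 of 16 transport genes that fell (-0.43 ± 0.13, edgeR adjusted p = 0.0363). Acacb, the acetyl-CoA carboxylase of the mitochondrial surface, was the 1 of 15 fatty acid genes that rose, at 11.5 against 6.47 CPM (0.83 ± 0.16, edgeR adjusted p = 0.00212). Of 15 prenylation genes 0 were called, and Fnta, a subunit of farnesyltransferase, had the smallest p (0.19 ± 0.07). These 5 called genes also passed against HSC wt. There 10 of the 67 genes (14.9%) were called, beside 11.3% of all genes. The other 5 were Scd2, a stearoyl-CoA desaturase (-0.50 ± 0.12, edgeR adjusted p = 0.00874), Fnta (0.27 ± 0.07, edgeR adjusted p = 0.0162), Abca7 (-0.31 ± 0.08, edgeR adjusted p = 0.0194), Pgrmc1 (0.22 ± 0.07, edgeR adjusted p = 0.0311) and March6 (-0.17 ± 0.05, edgeR adjusted p = 0.0354).

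Called genes lay closer together near some of these loci than near others. Within 5 Mb of Vcp, 20 of 92 tested neighbours (21.7%) were called in EC KO against Spred1 wt, and near Acacb 16.3% of 98 were, against 7.96% of all genes. Near Abca1 it was 2 of 28 (7.14%), near Npc1 1 of 29 (3.45%), near Sqle 11.8% of 34 and near Acat2 10.9% of 46. Against HSC wt and global KO, 11.3% and 8.67% of all genes were called. The shares there were 10.7% and 17.9% near Abca1 and 3.45% and 6.9% near Npc1. Near Sqle they were 17.6% and 23.5%, and near Acat2 10.9% in both. Near Vcp they were 22.8% in both, and near Acacb 23.5% and 19.4%. The window was chosen after seeing the data, and no test was made.

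Within groups, agreement of the genes with Insig1 was weak and of either sign. Deviations of log2 CPM from the group mean correlated best with those of Insig1 for Fdft1 (Pearson r = 0.52, Spearman rho = 0.48; permutation p = 0.0221 and 0.0313, n = 26 libraries, 100000 resamples within groups) and Srebf2 (r = 0.43, rho = 0.50; permutation p = 0.0341 and 0.0159). Over all genes tested their adjusted p of r were 0.0795 and 0.104. The 2 genes past an adjusted p of 0.05, out of 28, were both negative, Ebp (r = -0.60, rho = -0.65, permutation adjusted p = 0.0185 and 0.0141) and Scap (r = -0.55, rho = -0.39, permutation adjusted p = 0.0478 and 0.170), beside 20.2% of all genes that passed. The S phase gene Mcm5 had r = -0.62, Tpsab1 of mast cells -0.44 and C1qa of macrophages 0.24. Without the 2 libraries farthest from the median of Insig1, HSC KO replicates 1 and 5, r was -0.67 for Ebp and -0.47 for Scap, and 0 of 28 genes passed. In that setting 0 of all 13378 genes passed. With all libraries the median r over the 28 genes was 0.07, beside 0.02 over all genes, and 17 of 28 were positive. Without those 2 libraries the medians were 0.11 and 0.01.

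**Figure D5:**
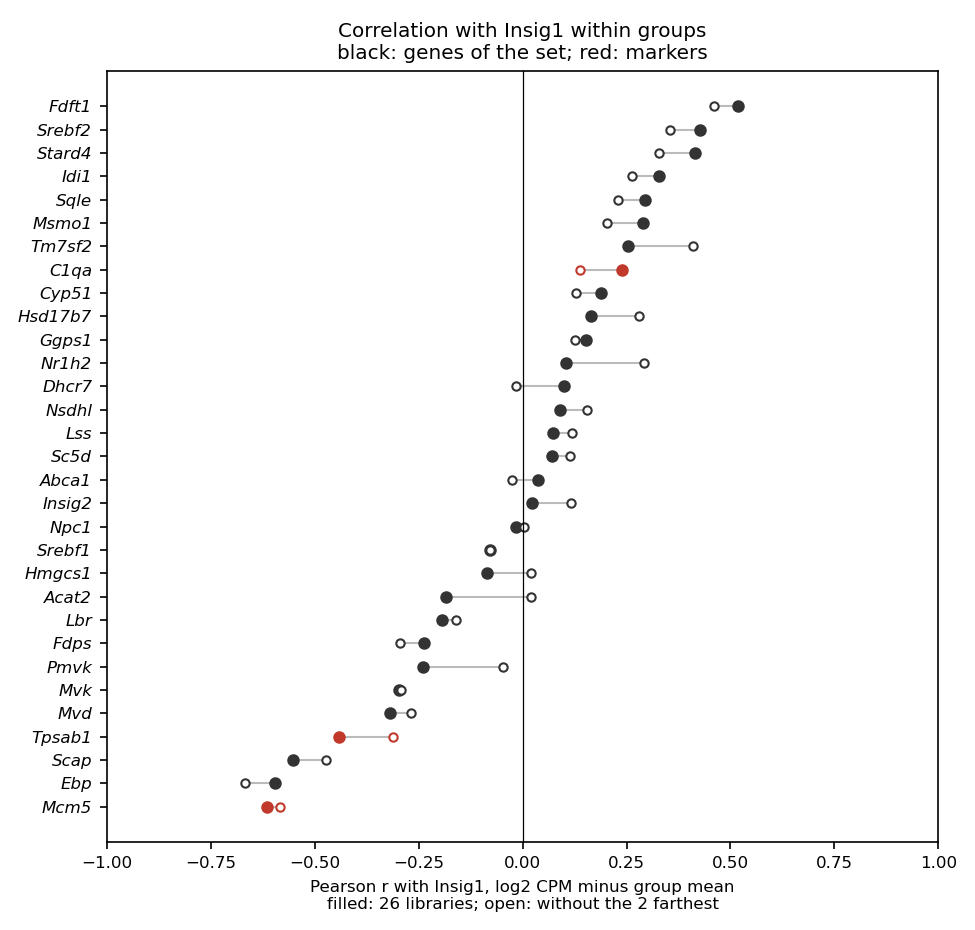
Pearson r of each gene with Insig1 over 26 libraries after removal of group means, filled for all libraries and open without the 2 farthest, with 3 markers of mast cells, macrophages and S phase in red. The enzymes spread on both sides of 0, from Fdft1 at 0.52 to Ebp at -0.60.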

How the data were processed

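Raw counts of reads per gene were deposited by the authors as whole numbers. The submitters' processing notes name build mm10 and the tools STAR 2.6.0, HTSeq 0.6.0, bcl2fastq 2.18.0.12 and edgeR 3.28.1. The annotation and strand setting are not given in the sources used here. Groups came from the titles. All 26 libraries entered 1 fit of 5 group means (edgeR 4.0.16, TMM, filterByExpr with minimum count 10, robust quasi-likelihood F-test, two-sided, 21 residual degrees of freedom), with Benjamini-Hochberg adjustment over 13379 genes. Levels are CPM on library sizes scaled by TMM, divided by the gene length of the table where given per kilobase, and log2 CPM used a prior count of 2. Intervals cover 95% and come from the same fit. The fit and the correlation were tested on simulated data with known changes. R 4.3.3, limma 3.58.1, DESeq2 1.42.0, Python 3.11.15, NumPy 2.4.6 and matplotlib 3.10.9 were used.

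The genes, lists and tests were chosen with earlier results of these data known. Every gene of the set is reported, with library values or ranges in the planned comparisons for those with an unadjusted p under 0.05 or groups that did not overlap, and from each list the genes past the threshold or the smallest p. The alternatives were DESeq2, RLE and upper-quartile normalization, no filter, a filter of 1 CPM in 5 libraries, only the groups compared, limma voom with quality weights, covariates for sex, mast cells and macrophages, or S phase, other controls for EC KO, and each library left out in turn.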

Additional observations from a re-analysis of the deposited data

Results flagged for a closer look

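Of 145 sets of values (29 genes in 5 groups), 13 held 1 library apart from the rest of its group by Dixon's criterion, and chance marks about 1 in 20. EC KO replicate 3 held 4 of the 13: Fdps at 66.6 CPM (others 42.5 to 45.6), Idi1 at 15.5 CPM (10.6 to 12.01), Msmo1 at 31.5 CPM (21.8 to 23.9) and Sc5d at 30.7 CPM (24.7 to 26.4), all high. That library was the highest of its group in 15 of 29 genes, while its Abca1 was the lowest at 17.8 CPM.

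In EC KO replicate 5 Srebf2 was high at 242 CPM (others 180 to 196). In global KO replicate 1 Ggps1 was low at 29.2 CPM (37.5 to 41.1) and Scap high at 155 CPM (120 to 128), and in global KO replicate 4 Sqle was high at 53.7 CPM (34.7 to 41.8). In Spred1 wt Ggps1 was high in replicate 4 at 42.6 CPM (36.4 to 37.7) and Scap in replicate 3 at 139 CPM (110 to 116). In HSC KO Acat2 was low in replicate 1 at 18.7 CPM (23.02 to 24.5) and Msmo1 in replicate 5 at 19.5 CPM (23.3 to 24.5), and in HSC wt Sqle was low in replicate 3 at 37.0 CPM (41.3 to 42.0).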

How the results depend on the processing

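Between 20 and 31 alternatives were run per comparison. In global KO, HSC KO, the wild-type comparison and the difference of effects, 0 genes of the set were called under each of them. In EC KO against Spred1 wt the count of 4 became 2 without a filter and 2 with HSC wt as control, and 2 to 4 when 1 library was left out. Abca1 and Npc1 were called under every alternative run, with ranges of -1.40 to -0.84 and -0.55 to -0.39. With HSC wt as control Acat2 (-0.028) and Stard4 (-0.0055) changed sign. In EC KO against global KO the count of 3 became 5 with DESeq2 and 2 to 5 when 1 library was left out, with 5 without EC KO replicate 5. In EC KO against Spred1 wt, Sqle also lost its call with limma voom, and Acat2 with RLE normalization and with only the groups compared. Sqle and Acat2 both lost it without a filter, with the S phase covariate and with the mean of Spred1 wt and HSC wt as control. The count of genes correlated with Insig1 became 0 without the 2 farthest libraries and 0 after removal of mast cell and macrophage means. In either setting 0 of all 13378 genes passed, against 20.2% with all libraries. After that removal the median r over the 28 genes was 0.17, beside 0.02 over all genes, with 20 of 28 positive. Causes of these changes were not tested. In EC KO, 7 of 29 differences changed sign with HSC wt as control, leaving 11 higher, and 7 with the S phase covariate, leaving 13 higher. Median differences ran from 0.06 to 0.15 in global KO, -0.09 to -0.03 in HSC KO, -0.03 to 0.08 in EC KO against Spred1 wt, 0.02 to 0.10 in HSC wt, 0.08 to 0.17 for the difference of effects and -0.12 to -0.03 in EC KO against global KO. No paired analysis was possible because the labels number no replicates across groups. The lowest count of a gene of the set in a library was 64, so depth limits small differences of the lowest genes most.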
